A study of Mus musculus with 2 samples.

Results

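The antioxidant defence genes described here were 10 mouse genes: Sod1, Prdx2, Gpx1, Cat, Txnrd1, Gsr, Gclc, Gclm, Nqo1 and Hmox1. They were chosen by function, by symbol, from the 21853 protein-coding genes of the GENCODE annotation of mm10, and all 10 were found. The choice was made with earlier results of these data known, so the shares over all genes given below serve as description only. Their chromatin was measured by ATAC-seq, in which the Tn5 transposase cuts accessible DNA and leaves sequencing adapters there. The cells were megakaryocyte-erythroid progenitors (MEP), marrow progenitors of both red cells and platelets, from male C57BL/6J mice of 5 to 6 weeks. There was 1 group of 2 libraries of 50000 cells each, numbered 1 and 2 as biological replicates in the labels. No treatment, mutation or transgene is named, and with no second group no test between conditions was possible. Both libraries name the same donor entry but separate biosamples, and the labels do not say whether they came from separate animals. The spread between them may thus be technical in part.

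Red cell precursors make haem and carry iron, and both favour the formation of superoxide and hydrogen peroxide. Superoxide dismutase turns superoxide into hydrogen peroxide, which catalase, glutathione peroxidases and peroxiredoxins break down. The peroxidases draw on reduced glutathione and reduced thioredoxin, which glutathione reductase and thioredoxin reductase restore with NADPH. Many of these genes respond to the transcription factor NRF2 (gene Nfe2l2), which the adaptor KEAP1 holds for degradation until oxidants or electrophiles modify it. NRF2 pairs with small MAF proteins at antioxidant response elements (ARE), and the haem-sensing repressor BACH1 occupies the same elements. GATA1 is the leading transcription factor of red cell precursors.

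The DNA under some accessible regions of these genes carries ARE or GATA letters, and the stretches named in the results below are shown first. These stretches are picked examples, and the shares of all regions with such letters are given with the counts below. All were read from mm10, run 5′ to 3′ and show the matched letters in capitals. The first pair holds the ARE letters TGACNNNGC in distal regions of Hmox1 and Gclc, and every match here also contains TGANTCA, the letters shared by NF-E2 and AP-1 factors:
Hmox1 distal region, chr8:75083939-75084024, minus strand: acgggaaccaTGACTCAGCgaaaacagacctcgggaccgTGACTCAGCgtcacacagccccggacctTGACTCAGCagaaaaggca
Gclc distal region, chr9:77750715-77750783, minus strand: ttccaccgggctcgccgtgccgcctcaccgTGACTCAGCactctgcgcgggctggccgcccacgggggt

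The next stretches hold GATA letters (AGATAA or TGATAA, or their reverse complement) in the accessible region inside Prdx2 and in strong distal regions of Sod1, Gclc and Gsr:
Prdx2 region, chr8:84971073-84971226, minus strand: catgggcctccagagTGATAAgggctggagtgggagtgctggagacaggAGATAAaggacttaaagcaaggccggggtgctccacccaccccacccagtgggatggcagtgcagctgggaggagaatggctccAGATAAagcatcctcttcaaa
Sod1 distal region, chr16:90213544-90213717, minus strand: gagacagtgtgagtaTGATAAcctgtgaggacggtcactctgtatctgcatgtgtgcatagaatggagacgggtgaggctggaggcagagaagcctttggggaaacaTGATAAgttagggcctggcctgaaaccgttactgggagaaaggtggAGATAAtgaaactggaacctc
Gclc distal region, chr9:77757435-77757551, plus strand: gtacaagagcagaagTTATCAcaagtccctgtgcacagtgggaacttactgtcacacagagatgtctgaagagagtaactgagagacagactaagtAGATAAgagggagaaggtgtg
Gsr distal region, chr8:33688629-33688694, minus strand: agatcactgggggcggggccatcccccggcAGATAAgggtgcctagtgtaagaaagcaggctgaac

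The last 4 stretches are the ARE letters close to the summits of promoter regions:
Sod1 promoter, chr16:90220696-90220724, minus strand: ggcctgagtcTGACCACGCccaccttggc
Gclm promoter, chr3:122245413-122245441, minus strand: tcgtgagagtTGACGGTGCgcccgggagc
Gsr promoter, chr8:33653481-33653509, minus strand: agcgtcgccgTGACTAAGCaccgcgcccg
Txnrd1 promoter, chr10:82859104-82859132, minus strand: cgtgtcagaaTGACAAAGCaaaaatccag

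The deposited data were peak lists. For each library there was a list thresholded on the irreproducible discovery rate (IDR), a measure of the reproducibility of peak ranks, and a longer list that the authors call pseudoreplicated. A conservative list covered both libraries. Overlapping peaks were merged into regions, and the value given for a region is the fold of its strongest peak. Folds are the authors' values and serve to describe and rank regions within a list. They were not scaled between libraries, so the differences and SDs between libraries given below include any shift of a whole list. Library 1 had 26353 and library 2 had 28142 regions in their IDR-thresholded lists, and the read depth behind them is unknown. Against cell type markers, the promoters of 6 of 6 erythroid genes were accessible in both libraries. Of 5 megakaryocyte markers only Gp1ba was, and 4 of the 5 had promoter regions in both longer lists. Of the 14 markers of granulocytes and macrophages, B cells, T cells and hepatocytes 0 were accessible in both libraries, and the hepatocyte marker Apoa1 was in library 1.

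Which of the antioxidant genes had accessible promoters was asked first. A promoter counted as accessible when each library had, in its IDR-thresholded list, a region within 1 kb to either side of a protein-coding transcription start site (TSS). Nearly the whole set met this: 9 of the 10 antioxidant genes, against 45.7% of all protein-coding genes (9988 of 21853). The exception was Gclc, which encodes the catalytic subunit of glutamate-cysteine ligase, the rate-limiting enzyme of glutathione synthesis. In the longer lists of both libraries 9 of the 10 genes again had a promoter region, against 56.5% of all genes, and in the conservative list 10 of 10 did, against 54.5%.

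The regions were open but not among the stronger ones. Over the 9 genes the median of the mean fold was 6.94 (range 4.92 to 10.1), against 8.61 for all accessible genes. Only Cat, Nqo1 and Hmox1 had a promoter region in the upper 50% by fold of both IDR-thresholded lists. By this stricter measure the set, with 3 of 10 genes, was close to the 27.7% of all genes. That share counts genes without an accessible promoter too. Among accessible genes it was 3 of 9 in the set, against 6057 of 9988. Nqo1 and Hmox1 alone had a mean fold above the median of accessible genes.

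**Figure D1:**
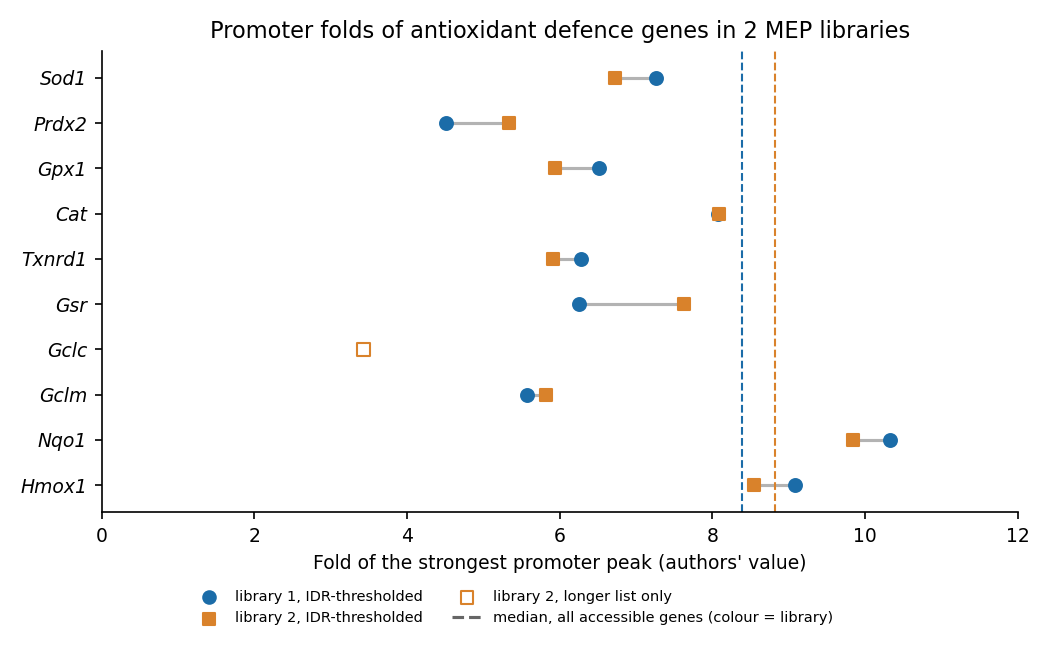
Fold of the strongest promoter peak (horizontal axis, the authors' value) of each antioxidant defence gene in library 1 (circles) and library 2 (squares). Dashed lines mark the medians of all accessible genes, 8.38 in library 1 and 8.82 in library 2. Nqo1 lies right of both lines in both libraries, and Gclc has only an open square from the longer list of library 2.

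Sod1 encodes the cytosolic copper-zinc superoxide dismutase. Its promoter region had a fold of 7.27 in library 1 and 6.73 in library 2, and 24.8% of accessible genes had a lower mean fold. The region (chr16:90220175-90221381 in the conservative list) was the widest of the 10, at 1207 bp, and its summit lay 120 bp upstream of the only TSS. The ARE letters shown above lie 44 bp upstream of the TSS, and 4 matches fall in the whole region, 1 of them TGACTCAGC at 273 bp past the TSS.

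Cat encodes catalase, which breaks hydrogen peroxide down without drawing on glutathione or thioredoxin. Its promoter fold was 8.07 in library 1 and 8.08 in library 2, the closest agreement among the 9 genes. The summit (chr2:103484584-103485433) lay 6 bp upstream of the TSS, and 3 CCAAT boxes fell within 100 bp of it.

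Gpx1 encodes the cytosolic glutathione peroxidase. It had a promoter fold of 6.51 in library 1 and 5.94 in library 2. The region (chr9:108338890-108339663) covered all 3 of its TSS.

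Prdx2 encodes peroxiredoxin 2, one of the most abundant proteins of red cells. It had the lowest promoter fold of the 9 genes, 4.51 in library 1 and 5.33 in library 2, and 2.58% of accessible genes had a lower mean fold. This region (chr8:84970933-84971351) was not at a protein-coding TSS. Its summit lay in an intron, 1551 bp from the most upstream TSS and 899 bp past the most downstream one, so it counted as a promoter region only through the last TSS. Prdx2 was the 1 of 9 accessible antioxidant genes whose strongest promoter region covered none of its TSS, which was the case in 7.90% of all accessible genes. The most upstream Prdx2 TSS had a region of its own in both longer lists, with a fold of 3.14 in library 1 and 2.86 in library 2. It had none in the IDR-thresholded or conservative lists. The IDR of that region was 0.0856 in library 1 and 0.181 in library 2, above the threshold of 0.05. Between the libraries its IDR was 0.0526, just above the threshold. A Prdx2 TSS is shared base for base with the opposite gene Rnaseh2a. A further opposite gene, Gm49661, has a TSS 154 bp from a Prdx2 TSS. Accessibility around these TSS thus cannot be told apart among the 3 genes. Rnaseh2a also had a promoter region 3.4 kb upstream of the most upstream Prdx2 TSS, with a pooled fold of 6.52 in the conservative list. The intronic Prdx2 region had 4.88 there.

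The Prdx2 region also differed in sequence from the other promoter regions of the set. It held 3 GATA matches within 100 bp of its summit, at 47, 37 and 71 bp, and 0.201% of all promoter regions held 3 or more (27 of 13422). Because the region covers no TSS, distal regions are a closer comparison, and 1.60% of them held 3 or more (525 of 32778). The match at 47 bp lies in an annotated exon of Prdx2 and the other two in an intron. Among the strongest promoter regions of the 10 genes it was the only one with any GATA match. Such a match was in 11.1% of all promoter regions and in 42.4% of all distal regions. Its ratio of observed to expected CpG was 0.121, the lowest of the 10 genes, whose median was 0.867 against 0.754 for all promoter regions. The median of all distal regions was 0.226.

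Txnrd1 encodes the cytosolic thioredoxin reductase. Its promoter fold was 6.28 in library 1 and 5.92 in library 2. The region (chr10:82858830-82859544) lay at a group of 4 TSS that starts 25.2 kb inside the gene. At the most upstream TSS no region was present in any of the 9 lists used. A second, weaker region over the last TSS of the group had a fold of 2.79 in library 1 and 2.71 in library 2 in the longer lists. With Prdx2, Txnrd1 made 2 of 9 accessible antioxidant genes with nothing at the most upstream TSS in either IDR-thresholded list, against 5.46% of all accessible genes.

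Gsr encodes glutathione reductase. Its promoter fold differed most between the libraries, at 6.25 in library 1 and 7.62 in library 2. The summit of the region (chr8:33653060-33653629) lay 240 bp past the TSS, and the ARE letters shown above were 17 bp from it, inside an exon. A second region 753 bp upstream of the TSS (chr8:33652211-33652767) had a fold of 4.37 in library 1 and 4.57 in library 2, and passed the IDR threshold in library 2 alone. It also had ARE letters, TGACTTAGC, 13 bp from its summit.

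Gclm encodes the modifier subunit of glutamate-cysteine ligase. It had a promoter fold of 5.57 in library 1 and 5.82 in library 2. The summit of the region (chr3:122245241-122245842) lay 185 bp upstream of the TSS. A last TSS 10030 bp inside the gene had no region in either list of either library. A further list of both libraries, called replicated, held a weak region with its summit 122 bp past that TSS and a pooled fold of 2.65.

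Gclc stood apart from its partner subunit. No region lay within 1 kb of its single TSS in either IDR-thresholded list or in the longer list of library 1. The longer list of library 2 had 1 with a fold of 3.43, and the conservative list had 1 over the TSS itself (chr9:77754423-77754661) with a fold of 2.57. Only 0.224% of all promoter regions in the conservative list had a lower fold. The sequence there was not poor in CpG, with an observed to expected ratio of 1.06, the highest of the 10 genes. Stronger regions flanked the TSS on both sides. The region 3.8 kb upstream (chr9:77750291-77751210) had a fold of 5.76 in library 1 and 5.62 in library 2, and the intronic region 3.0 kb downstream (chr9:77757254-77757716) had 8.06 in library 1 and 8.93 in library 2. Both were in both IDR-thresholded lists. Among the 10946 genes with no promoter region in either IDR-thresholded list, 0.265% had 2 or more such distal regions within 5 kb of the TSS (29 genes), a feature chosen after the values were seen.

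Nqo1 encodes a quinone reductase and is a standard NRF2 target. It had the highest promoter fold of the set, 10.3 in library 1 and 9.85 in library 2, and 71.9% of accessible genes had a lower mean fold. The summit of its region (chr8:107402753-107403863) lay 18 bp past the only TSS. No match of the ARE letters TGACNNNGC fell anywhere in this region. Other forms of the element were not searched for, so the region may still hold an ARE.

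Hmox1 encodes haem oxygenase 1, which breaks down free haem. Its promoter fold was 9.08 in library 1 and 8.55 in library 2. The region (chr8:75093461-75093944) was 484 bp wide, with its summit 15 bp upstream of the TSS, and it too held no match of TGACNNNGC.

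The libraries placed these promoters alike. The summits of the strongest promoter peaks differed between the libraries by 1 to 20 bp, with a median of 6 bp against 10 bp for all accessible genes. The fold was higher in library 2 in 4 of the 9 genes (Prdx2, Cat, Gclm and Gsr; 44.4%), against 66.5% of all accessible genes. The largest difference, in Gsr, was 0.29 on the log2 scale (library 2 over library 1).

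Distal regions were counted next, as regions of the conservative list that overlapped no promoter and whose summit was inside the gene or at most 50 kb from the TSS farthest upstream. The antioxidant genes had 49, each belonging to 1 of them only. The mean was 4.9 and the median 4.5 per gene, against a mean of 2.63 and a median of 2 for all genes. All 10 had at least 1, against 74.0% of all genes, and 5 of 10 had 5 or more, against 20.0% of all genes. Genes with an accessible promoter had more distal regions in general, with a median of 3, and 27.2% of them had 5 or more. The median gene length was 20.1 kb for the antioxidant genes and 17.4 kb for all genes. Distance does not tell on which gene a region acts, and for 22 of the 49 regions the nearest TSS was one of the antioxidant gene itself.

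**Figure D2:**
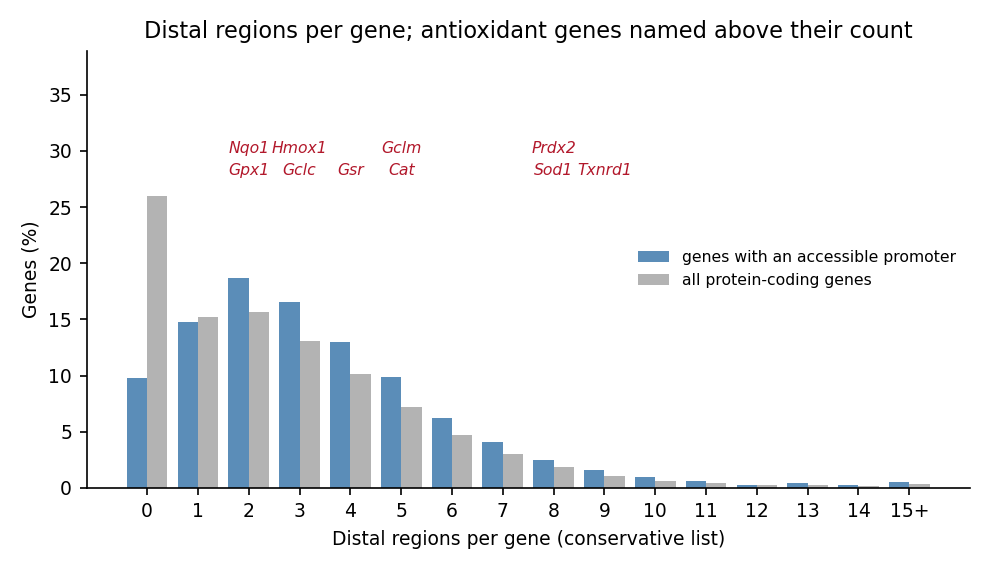
Share of genes (vertical axis, percent) by number of distal regions in the conservative list (horizontal axis), for genes with an accessible promoter and for all protein-coding genes. The antioxidant genes are named above their own number and run from 2 (Gpx1, Nqo1) to 9 (Txnrd1).

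Txnrd1 had 9 distal regions, and 3.13% of all genes had as many or more. Its window was centred on the most upstream TSS, where no list had a region, and not on the accessible promoter 25.2 kb further in. One of the 9, at 60.1 kb, counted only through the gene body, and 8 remained within 50 kb. Prdx2 and Sod1 had 8 each, which 5.02% of genes reached. Cat and Gclm had 5, Gsr 4, Gclc and Hmox1 3, and Gpx1 and Nqo1 2. By library, the IDR-thresholded list of library 1 held 25 distal regions of the set, a mean of 2.5 per gene against 1.26 for all genes. That of library 2 held 33, a mean of 3.3 against 1.40 for all genes.

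Of the 49 regions, 23 lay in introns, 5 in exons and 21 between genes. Inside the antioxidant gene itself lay 12, and 16 lay inside another gene. Those other genes were Mast1, Rtbdn, Rnaseh2a, Junb, Hook2 and Best2 around Prdx2, Usp4 at Gpx1, Elf5 at Cat, Scaf4 at Sod1, Bcar3 at Gclm, Ppp2cb at Gsr and Wwp2 at Nqo1. Another 15 regions in the windows were promoter regions of other genes and were counted apart, 6 of them around Prdx2. Close to the limit, the Gclm window included a region at 48.6 kb with a pooled fold of 5.90 and left out one at 50.1 kb with 5.90.

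**Figure D3:**
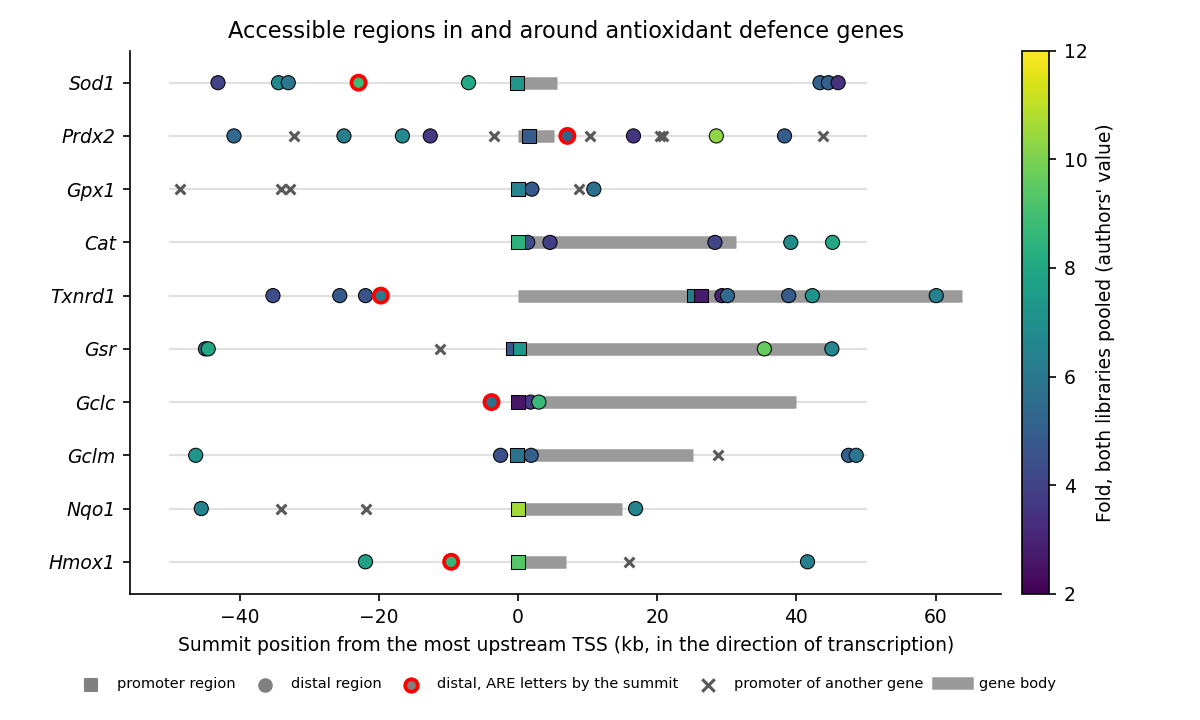
Accessible regions of the conservative list by distance of the summit from the most upstream TSS (horizontal axis, kb in the direction of transcription), 1 gene per line. Squares are promoter regions, circles distal regions, crosses promoters of other genes, grey bars gene bodies, colour the fold of both libraries pooled, and red rims mark ARE letters within 100 bp of the summit. The strongest circle is the Prdx2 region 28.5 kb downstream, and the Txnrd1 squares lie over 25 kb inside the gene.

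In strength these regions were not exceptional. Their pooled folds ran from 2.99 to 10.3 with a median of 5.67, against 6.36 for all 32778 distal regions. They were in both IDR-thresholded lists in 49.0% of cases (24 of 49), against 38.9% of all distal regions, and in neither in 30.6%, against 40.4%. All 49 were in both longer lists, as were 90.9% of all distal regions. Of the 49, 18 had a pooled fold above the median of all distal regions.

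The strongest distal region was that of Prdx2 28.5 kb downstream, in an exon of Hook2 (chr8:84997716-84998453), with a fold of 8.68 in library 1 and 11.1 in library 2. It was the only one of the 49 above 90% of all distal regions. The intronic Gsr region 35.4 kb past the TSS (chr8:33688122-33688822) followed with 8.49 in library 1 and 9.69 in library 2. Its GATA letters shown above lie 3 bp from the summit, and 8.12% of all distal regions had GATA letters within 10 bp. Of the 49 regions, the Gclc region 3.0 kb downstream was the other one with such a match, 6 bp from its summit.

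Sod1 had strong regions on its upstream side. The region 22.9 kb upstream (chr16:90196886-90198138) had a fold of 8.95 in library 1 and 7.87 in library 2, and the one 7.1 kb upstream (chr16:90213260-90214240) had 7.43 in library 1 and 8.01 in library 2. Both had 3 summits and no nearer TSS than that of Sod1. The region 7.1 kb upstream, a picked example, held 3 GATA matches within 100 bp of its summit. No other of the 49 distal regions of the set reached that number, and 1.60% of all distal regions did (525 of 32778).

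Hmox1 is known in mouse for upstream enhancers that carry repeated AREs. Whether the regions described here are those enhancers was not tested. The region 9.6 kb upstream (chr8:75083708-75084225) had a fold of 8.10 in library 1 and 8.27 in library 2, and 81.1% of all distal regions had a lower pooled fold. Its 3 copies of TGACTCAGC, shown above, lay 61, 33 and 4 bp from the summit. Among all distal regions 0.0793% held 3 or more ARE matches in that window (26 of 32778). A weaker Hmox1 region 21.9 kb upstream had a fold of 6.95 in library 1 and 7.43 in library 2 and held no match of ARE or GATA letters in the window.

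Cat had 3 distal regions inside its own introns, at 1.4, 4.6 and 28.3 kb past the TSS, with pooled folds of 4.34, 3.83 and 4.10, and its strongest lay 45.2 kb away in an intron of Elf5, with a fold of 6.45 in library 1 and 8.46 in library 2. Gclm was bracketed at close range, by a region 2.5 kb upstream with 4.29 in library 1 and 4.39 in library 2 and by an intronic one 1.9 kb downstream with 4.86 in library 1 and 4.95 in library 2. All 5 distal regions of Gclm were in both IDR-thresholded lists. Around Txnrd1 the region 19.7 kb upstream had a fold of 5.48 in library 1 and 6.36 in library 2 and held the ARE letters TGACTCCGC 18 bp from its summit. The weakest of the 49 regions lay in Txnrd1 as well, 29.3 kb past its first TSS, with 2.75 in library 1 and 3.10 in library 2. Gpx1 had a region 2.0 kb past its TSS, between genes, with 4.58 in library 1 and 4.88 in library 2.

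The libraries differed in one direction at the distal regions. In the longer lists the fold was higher in library 2 in 40 of the 49 regions, higher in library 1 in 8 and equal in 1. Library 2 was thus higher in 81.6% of them, against 73.4% of all distal regions of both lists. The median difference was 0.17 on the log2 scale for the antioxidant genes and 0.12 for all distal regions. In the IDR-thresholded lists 10 of the 49 regions (20.4%) were in 1 library only, against 20.7% of all distal regions. Of these, 9 regions (18.4%) were in library 2, against 12.6% of all, and 1 (2.04%), the Nqo1 region 45.5 kb upstream, was in library 1, against 8.19% of all. The widest gap was at the Nqo1 region 16.9 kb downstream, with a fold of 4.62 in library 1 and 7.98 in library 2.

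**Figure D4:**
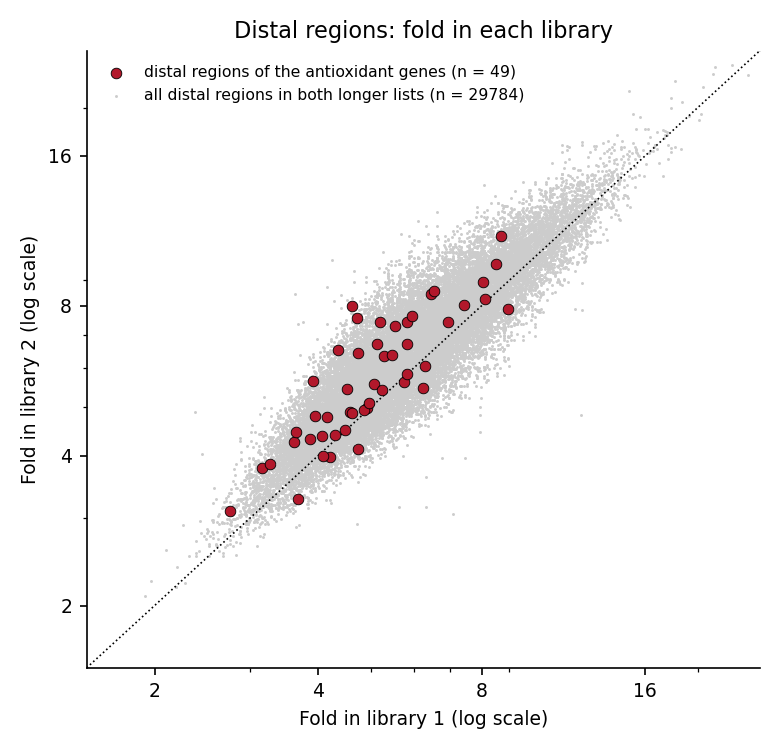
Fold of each distal region in library 1 (horizontal axis) and library 2 (vertical axis), both log scale, from the longer lists. Red points are the 49 regions of the antioxidant genes, grey points all 29784 distal regions found in both lists, and the dotted line marks equal folds; 40 of the 49 lie above it.

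Motif letters were then counted within 100 bp to either side of each summit, on both strands, in the strongest promoter region of each gene and in its distal regions. A match describes the sequence only. ARE letters were in 4 of 10 promoter regions (Sod1, Gclm, Gsr and Txnrd1), against 11.9% of all promoter regions. This count depended on the window: over the whole region it was again 4 of 10, against 32.4% of all promoter regions. In the RefSeq promoters of GRCm38, which cover 250 bp before to 50 bp after the start and matched 7 of the 10 genes by symbol, Sod1, Gclm and Txnrd1 held ARE letters, against 12.4% of all promoters in that table.

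Letters of KLF factors and GC boxes (CCNCNCCC or CCGCCC, forms that can overlap) were in 10 of 10 promoter regions, against 70.7% of all. CCAAT boxes (CCAAT) were in 4 of 10, against 32.1%, and the letters of NRF1 (GCGCNNGCG), a factor unrelated to NRF2, in 1 of 10, against 16.7%. ETS letters (CCGGAAG) were in 0 of 10, against 14.0%, and TGANTCA in 0 of 10, against 3.23%. The median GC content in these windows was 65.4% for the antioxidant genes and 63.2% for all promoter regions.

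In the distal regions the shares were near those of all distal regions for some motifs and apart from them for others. ARE letters were in 5 of 49 regions (10.2%), against 10.9% of all, and GATA letters in 19 (38.8%), against 42.4%. KLF and GC box letters were in 17 (34.7%), against 29.4%, and ETS letters in 1 (2.04%), against 1.82%. TGANTCA was in 7 of 49 regions (14.3%), against 7.27% of all. Within 50 bp of the summit it was in 10.2%, against 4.07%, but over whole regions in 18.4%, against 16.6%, so the gap depended on the window. NRF1 letters were in 3 regions (6.12%), against 1.30%, and all 3 lay in the window of Prdx2. CCAAT boxes were in 7 regions (14.3%), against 21.7%. The ARE matches that also contain TGANTCA were those of Hmox1 and Gclc, 2 of 49 regions (4.08%), against 1.35% of all. None of these differences was tested.

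The wider antioxidant system was described by 56 companion genes in 7 groups. Accessible promoters were found in 47 of them, 83.9% against the 45.7% of all genes given above. Over these 47 the median mean fold was 7.70.

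Among the other peroxidases and superoxide dismutases 8 of 12 promoters were accessible, with a median mean fold of 10.1. The highest was Prdx4, the endoplasmic reticulum peroxiredoxin, at 12.3 ± 0.20 (SD, n = 2), and the lowest Prdx6 at 5.07 ± 0.12. Gpx3, a secreted glutathione peroxidase, and Sod3, the extracellular superoxide dismutase, had no promoter region in either list of either library. Gpx7 and Gpx8 had promoter regions in the longer lists of both libraries but in neither IDR-thresholded list. Of the glutathione genes 9 of 11 were accessible, from Glrx5, a mitochondrial glutaredoxin of iron-sulphur cluster assembly, at 5.97 ± 0.037 to Glrx3 at 12.3 ± 0.15. Mgst1 had promoter regions in both longer lists but in neither IDR-thresholded list.

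Of the thioredoxin genes 7 of 8 were accessible. Msrb1, a methionine sulphoxide reductase, was highest at 9.42 ± 1.06 and Txnrd2, the mitochondrial thioredoxin reductase, lowest at 5.90 ± 0.59, and Msra had no promoter region in either list of either library. Of the genes of NADPH supply 6 of 7 were accessible, from Tkt at 4.77 ± 0.10 to Idh1 at 11.6 ± 0.33, and Me1 had promoter regions in both longer lists but in neither IDR-thresholded list. All 5 genes of haem breakdown and ferritin were accessible. Blvra, biliverdin reductase A, which acts on the product of haem oxygenase, was highest at 14.3 ± 1.13 and Fth1, the ferritin heavy chain, lowest at 6.23 ± 0.10. All 6 FOXO and sestrin genes were accessible, from Foxo1 at 6.34 ± 0.43 to Sesn3 at 9.90 ± 0.56 (n = 2 throughout).

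The regulators of the NRF2 pathway had some of the lower promoter folds. Nfe2l2 had 5.17 in library 1 and 5.42 in library 2, and 5.04% of accessible genes had a lower mean fold. Keap1 had 4.20 in library 1 and 6.08 in library 2, the largest difference between the libraries among the companion genes. Bach1 had 5.10 in library 1 and 4.77 in library 2. Among the small MAF genes, Mafg had 3.83 in library 1 and 3.88 in library 2, the lowest mean of the 47 accessible companion genes, and Mafk had 6.44 in library 1 and 5.91 in library 2. Maff had 5.77 in library 1 and was below the IDR threshold in library 2. Nfe2l1, whose protein is related to NRF2, was the exception, with 10.7 in library 1 and 11.0 in library 2.

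**Figure D5:**
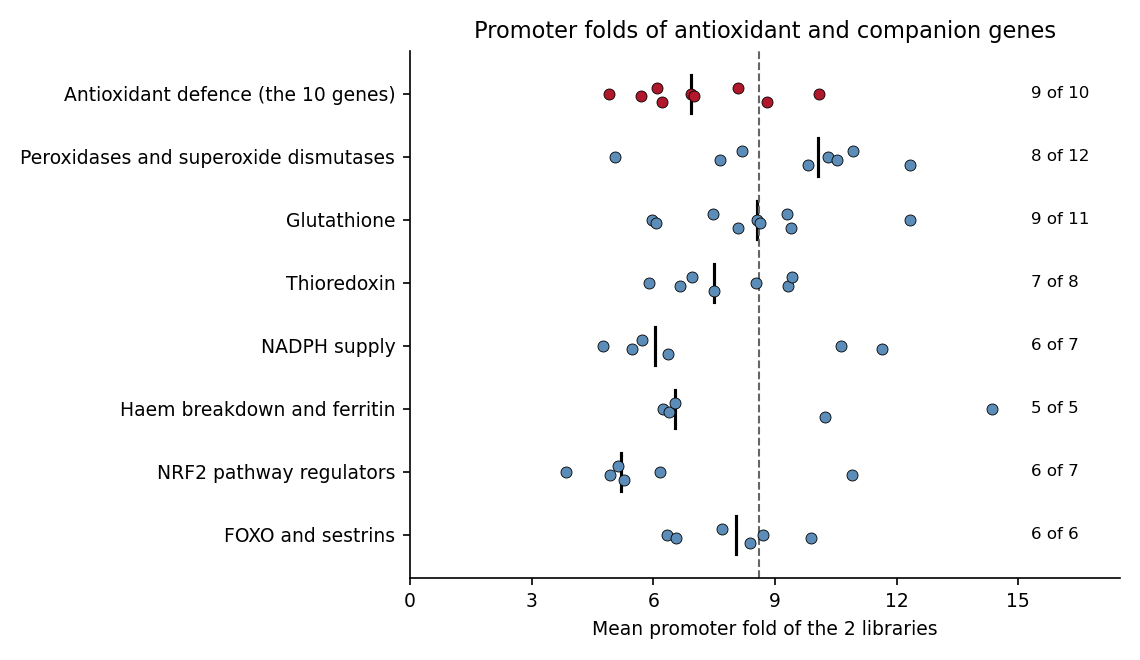
Mean promoter fold of the 2 libraries (horizontal axis, the authors' value) for the antioxidant defence genes and the 7 companion groups. Points are genes accessible in both libraries, short black bars group medians, the dashed line the median of all accessible genes (8.61), and the numbers at the right accessible genes of all genes in the group. The NRF2 pathway regulators have the lowest group median, 5.22.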

How the data were processed

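The authors deposited peak lists in narrowPeak layout on mm10, per the file headers. The deposited fold per peak is a ratio, read as such from its column and values. The deposited −log10 p of each peak was used only to pick the strongest peak of a region. A deposited score, the −log10 IDR, was used from the ranked lists. For the aligner, the peak caller, versions and Tn5 offset, details were not given in the sources used here. No read counts were used, so depth is unknown and no counting interval is given.

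Peaks on the 21 main chromosomes that overlapped or touched were merged. Genes and 54361 protein-coding TSS came from GENCODE M21, and sequence from the mm10 genome, with 0 regions past a chromosome end. Shares over all genes or regions serve as background, and no test was run. The antioxidant genes, companion lists, markers and motifs were chosen with earlier results of these data known. Named companion genes are the highest and lowest of each group, those with no promoter region in either IDR-thresholded list, and the NRF2 regulators. Alternatives were other windows, lists, thresholds, TSS sets and libraries left out. Counting was tested on simulated data. Python 3.11.15, pandas 2.3.3, numpy 2.4.6, pysam 0.24.0 and samtools 1.23.1 were used.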

Additional observations from a re-analysis of the deposited data

How the results depend on the processing

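Counts of accessible antioxidant promoters stayed at 7 to 10 of 10 under 8 of the 9 alternatives, including 9 without library 1 and 9 without library 2. Under these 8 the share of all genes ran from 42.8% (most upstream TSS only) to 56.5% (longer lists). In the upper 50% of regions by fold the count was 3, and that of companion genes 24 of 56 in place of 47, against 27.7% of all genes. The companion count was 48 without library 1, against 47.9% of all genes, and 48 without library 2, against 47.7%. Windows of 500 bp lost Prdx2, and the most upstream TSS alone lost Prdx2 and Txnrd1. The median promoter fold was 6.51 to 6.73 with a library left out, against 6.94. The number of distal regions ranged most: 25 to 33 with a library left out (25 without library 2, in place of 49), 28 within 25 kb, 82 within 100 kb, 86 in the replicated list, 15 in the upper 50% by fold and 74 with each peak summit counted. The mean per antioxidant gene stayed above that of all genes in each alternative where both were counted, 1.5 against 1.08 at the least. Genes with an accessible promoter, which had more distal regions in general, were not counted apart in these alternatives. ARE letters were in 2 promoter regions within 50 bp of the summit, against 6.72% of all. In distal regions they were in 9 (18.4%) within 200 bp, against 17.2% of all, and in 11 (22.4%) in whole regions, against 22.3%. GATA letters were in 11 (22.4%) within 50 bp, against 30.0%, and in 29 (59.2%) in whole regions, against 56.5%. No paired analysis was possible because there is 1 group and nothing to pair its 2 libraries with. Depth is unknown, so an absent region does not show closed chromatin.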
